A study of Mus musculus with 12 samples.

Results

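The alpha-defensin genes represented on an Agilent mouse expression array were followed in mouse stem cells in which p400 or Tip60 had been knocked down. They were chosen by name, as every probe whose gene name began with Defa or Defcr or whose description named an alpha-defensin or a cryptdin-related sequence, and this gave 12 gene names with 15 probes of 27962 names in the files with 41174 probes. The group was selected on earlier results of the same arrays, in which its members were higher in both knockdowns. The levels, ratios and counts of the members in both knockdowns are therefore a description, with no test over the members. Members are named by RefSeq through their transcript where it matched. Defa3, Defa20, Defa22, Defa23 and Defa31 are listed in the files as Defcr3, Defcr20, Defcr22, Defcr23 and Defcr-rs7, and Defa1, Defcr4, Defcr6, Defcr-rs2, Defcr-rs10 and Defcr-rs12 keep the name in the files.

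The cells were E14, a mouse embryonic stem cell line, transfected with esiRNA at 0.33 ng/µl and collected after 72 hr. esiRNA is a mixture of short interfering RNAs made by enzymatic cleavage of long double-stranded RNA. It was directed against p400 (Ep400, a chromatin remodelling ATPase), against Tip60 (Kat5, a histone acetyltransferase found in the same complex) or, in the controls, against the reporter EGFP, so every group had been transfected. The p400 knockdown was hybridised together with EGFP control RNA on 4 two-colour arrays of slide 1, with p400 RNA in Cy5 on replicates 1 and 3 and in Cy3 on replicates 2 and 4. The Tip60 knockdown (4 arrays) and its own EGFP controls (4 arrays) were single-colour and lay on slides 2 and 3, each with both groups. The submitters describe the replicates as biological and left Tip60 replicate 3 out as an intensity outlier, and it is left out here except where it is named. In bulk RNA, more cells that express a gene and more RNA per cell cannot be told apart.

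Alpha-defensins are small cationic peptides that disrupt microbial membranes. In the mouse they are called cryptdins and are best known as granule products of Paneth cells, the secretory cells at the base of small intestinal crypts, where the protease Mmp7 cleaves the inactive precursor to the active peptide. The cryptdin-related sequences (Defcr-rs) share the signal peptide and proregion of the cryptdins but encode different cysteine-rich mature peptides. The genes lie in a dense cluster on chromosome 8 and many copies are nearly identical, so a probe for one copy can detect others.

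The probe sequences show how far the copies can be separated. The 60-base probes for Defa1, Defcr6 and Defa23 are shown because they cover the same stretch, and the capitals mark the longest run of bases that they share, 14 bases that include the codons of the first cysteines of the mature cryptdin and occur in these 3 probes of the 15.
Defa1: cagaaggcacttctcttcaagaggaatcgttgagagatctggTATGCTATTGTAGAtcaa
Defcr6: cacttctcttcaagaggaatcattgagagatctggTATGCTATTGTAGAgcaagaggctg
Defa23: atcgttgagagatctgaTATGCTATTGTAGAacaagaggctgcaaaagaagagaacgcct
The Defa1 and Defcr6 probes overlap over 53 bases and match at 51 of them. The Defa1 and Defa23 probes overlap over 35 bases and match at 33. The files list the transcripts of Defcr6, Defa1 and Defa24 for the Defcr6 probe, so it is not specific to one gene. In the files' coordinates (mouse build mm7) the Defa23 probe runs over chr8:20116947-20117565 and the Defcr6 probe over chr8:20517598-20518216. Each of these spans 619 bases in the genome for a probe of 60 bases.

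The Defa3 and Defcr4 probes lie in the proregion upstream of the mature peptide, and they are shown because they resemble each other across gene names. They have no capitals.
Defa3: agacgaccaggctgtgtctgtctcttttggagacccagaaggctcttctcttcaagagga
Defcr4: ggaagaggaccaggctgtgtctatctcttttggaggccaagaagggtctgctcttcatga
They overlap over 57 bases with 50 matches. The Defa3 probe (A_51_P467086) lies at chr8:20438820-20438879 and the Defcr4 probe at chr8:20126869-20126928. A second Defa3 probe (A_52_P460887, chr8:20438720-20438780) lies in the signal peptide and proregion shared by most cryptdins, and the files list for it the transcripts of Defa3, Defa23, Defcr4 and Defa20. The Defcr4 probe is listed for Defcr4, Defa5 and Defa22. The Defa20 probe lies at chr8:20292296-20292355 and the Defa22 probe at chr8:20087339-20087398.

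Probes of the related sequences overlap as well. The pair of Defcr-rs2 probes (A_51_P102081 and A_52_P307801) share 33 bases end to end. The Defa31 and Defcr-rs12 probes overlap over 51 bases with 45 matches. The files give no position for the Defa1, Defa31, Defcr-rs2, Defcr-rs10 and Defcr-rs12 probes.

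In control cells, the cryptdin probes were measured and the related-sequence probes were mostly not. A probe is called well above background where the scanner software judged its signal to exceed the background by its own test. On the 4 single-colour EGFP arrays, all 8 probes of the 7 cryptdin names (Defa1, Defa3, Defa20, Defa22, Defa23, Defcr4 and Defcr6) were well above background on every array. Of the 7 probes of the 5 related sequences, 6 were above it on no EGFP array and 1, Defa31, on a single array. On these arrays the split by name and the split by detection were the same, and on the p400 arrays they were not.

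The ratio of mean signal to local background described each probe on its own scale. For Defa1 the ratio had a median of 7.52 over the 4 EGFP arrays, with a range of 7.07 to 8.87. For Defa22, whose ratio was nearest to background among the cryptdins, the median was 3.39 with a range of 2.85 to 4.12. The Defcr-rs2 probe A_51_P102081 had a median of 1.07 (0.98 to 1.25) and the probe A_52_P307801 a median of 1.31 (1.27 to 1.35). In the EGFP channel of the p400 arrays, a separate set of hybridisations, 4 of the 7 related-sequence probes (both of Defcr-rs2, Defcr-rs10 and Defcr-rs12) were above background on no array. The other 3, Defa31 on 3 arrays among them, were above it on 2 to 4 arrays, and each cryptdin probe on all 4. Ratios of different probes are not compared as amounts of RNA, since probes differ in their response.

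**Figure D1:**
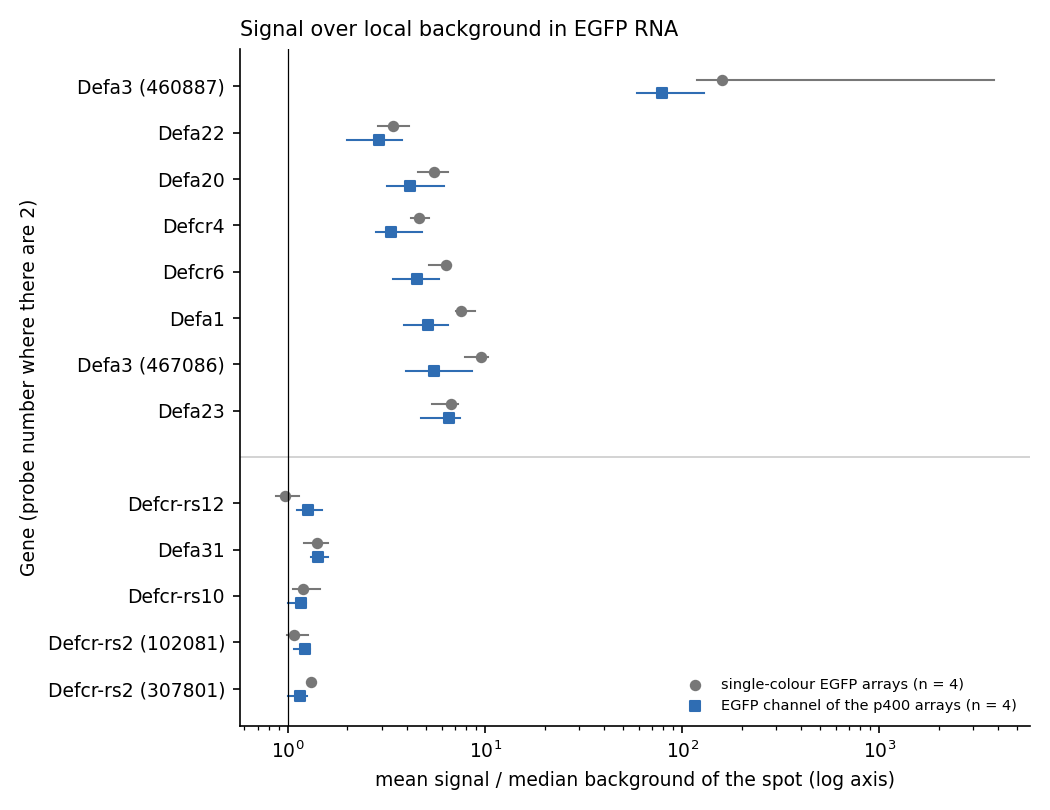
Mean signal over local background (log axis) of each alpha-defensin probe described in EGFP RNA, as the median (point) and range (line) of 4 single-colour arrays and of the EGFP channel of 4 p400 arrays. The 8 cryptdin probes above the grey line had medians from 3.39 to 159 on the single-colour arrays, and the related-sequence probes below it from 0.97 to 1.41. The long line of the second Defa3 probe includes the spot that was later dropped.

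After p400 knockdown, alpha-defensin signals were higher than in EGFP control RNA on every array for nearly every probe. Of the 15 probes, 14 were positive on all 4 arrays and the exception was Defcr-rs12. The share of all probes of the array that were positive on all 4 is not given here, so this count is a description. Over all 15 probes the median log2 ratio was 0.98, a 1.98-fold difference, against -0.0032 over the 41173 probes of the array with a ratio, and 2.05% of these probes lay above the median of the members. In the limma fit across the whole array (knockdown and dye terms, Benjamini-Hochberg adjusted p under 0.05), 14 of the 15 probes were tested and all 14 were called higher. Over the whole array 23.3% of 27952 tested probes were called higher and 19.3% lower. Probes at background in EGFP RNA, such as those of Defcr-rs2 and Defcr-rs10, could enter the test only by being measured in the knockdown. With signal above background required in both channels of all arrays, 9 members were called, beside 10689 probes over the array. Defcr-rs12 was above background in neither RNA on any p400 array and was not tested. The probes called over the array fell from 11912 to 7126 without replicate 2 and to 6739 without replicate 4, while the 14 members were called without any of the replicates.

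Defa1, one of the classical cryptdins, had log2 ratios of 1.33, 1.22, 0.87 and 1.09 on replicates 1 to 4. Its fitted change was 1.13 (SE 0.085), a 2.19-fold difference. Defcr6, whose probe differs from that of Defa1 at 2 of their 53 overlapping bases, had 1.34, 1.20, 0.87 and 1.05 and a fitted change of 1.11 (SE 0.087). The pair had nearly the same ratio on every array, highest on replicate 1 and lowest on replicate 3. Defa23, which shares the marked bases with them, had 1.41, 1.39, 0.88 and 1.08, and the fitted difference was 2.28-fold.

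The proregion probes gave values of the same size. The Defa3 probe A_51_P467086 had 1.24, 1.1, 1.09 and 1.13, with the narrowest spread among the cryptdins, and a fitted change of 1.14 (SE 0.053). Defcr4 had 1.11, 0.93, 0.93 and 1.16, and Defa20 had 1.12, 0.88, 0.82 and 1.05. These ratios overlapped between the 3 genes. Defa22 stood lower, at 0.75, 0.52, 0.59 and 0.48, a fitted change of 0.58 (SE 0.054), and none of its arrays reached the lowest array of Defa3, Defcr4 or Defa20.

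The second Defa3 probe, A_52_P460887, did not follow the others and its ratio moved with the dye. With p400 RNA in Cy5 (replicates 1 and 3) the log2 ratio was 0.58 and 0.90, and with p400 RNA in Cy3 (replicates 2 and 4) it was 0.05 and 0.07. Its fitted change of 0.40 was called with the dye term in the model and not without it, nor with arrays centred on their median, where the change was 0.19. The other Defa3 probe averaged 1.17 in Cy5 and 1.11 in Cy3, so both orientations gave the same result there.

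Among the related sequences, Defcr-rs2 had the largest ratios. Its probe A_52_P307801 had log2 ratios of 1.42, 1.59, 1.20 and 1.51 and its probe A_51_P102081 had 1.12, 1.49, 0.95 and 1.47. Both were above background on all 4 arrays in p400 RNA and on none in EGFP RNA, so the difference is a bound. It is at least 2.59-fold for the former, computed from the normalised levels with EGFP set no lower than the dimmest probe well above background on each array. The latter's EGFP signal was above that floor on every array, so its value by the same rule is the fitted one, 2.39-fold. These values hold for this background correction, and with the background fitted on all spots the log2 changes were 1.15 and 0.98. Defcr-rs10 had 0.81, 0.94, 0.50 and 1.04, a difference of at least 1.72-fold.

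The ratios of Defa31 and Defcr-rs12 were smaller, although their probes overlap. Defa31 had 0.41, 0.48, 0.32 and 0.60, and Defcr-rs12 had 0.12, 0.00, 0.02 and -0.02. The arrays of these 2 probes did not overlap.

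**Figure D2:**
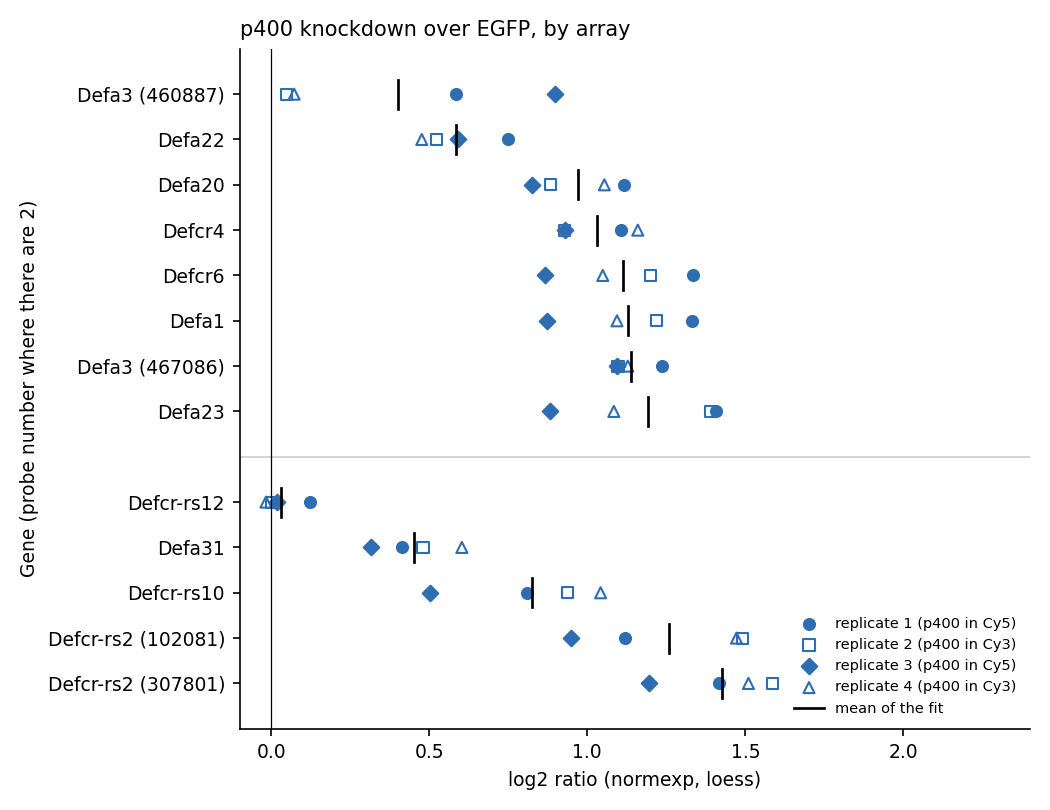
log2 ratio of p400 knockdown over EGFP for each alpha-defensin probe on the 4 two-colour arrays (filled symbols, p400 in Cy5; open symbols, p400 in Cy3), with the fitted mean as a black bar. All probes but Defcr-rs12 lie to the right of 0 on all 4 arrays, which describes the members only, and the second Defa3 probe (A_52_P460887) separates by dye.

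The size of the p400 ratios of dim probes depended on how background was treated. The main values carry an offset of 50 added to every signal, which pulls ratios of dim probes towards 0. In the authors' deposited log ratio, which has no such offset, Defcr-rs2 probe A_52_P307801 stood at 5.0, 5.60, 4.56 and 4.63 on the log2 scale, resting on an EGFP signal at background. For Defa1, which was well above background, the deposited values were 1.51, 1.38, 0.99 and 1.24, close to the main ones. The order of the members by ratio is therefore not interpreted for probes at background in EGFP RNA.

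Tip60 knockdown gave higher alpha-defensin signals as well, on arrays that share no control hybridisation with the p400 series. Levels here are log2 signals relative to the array's 75th percentile, with Tip60 replicates 1, 2 and 4 (n = 3) and EGFP replicates 1 to 4 (n = 4). Over all 15 probes the median log2 change was 1.14, a 2.20-fold difference, against 0.058 over all 41172 probes with a value, and 3.83% of these lay above the members' median. In the limma fit, 13 probes were tested and 12 were called higher, none lower. Over the whole array 13.2% of 25301 tested probes were called higher and 9.48% lower. Probes at background in EGFP RNA could enter the test only by being measured in the knockdown. When signal above background was required on all arrays, 7 members were called, beside 5427 probes over the array. Among the members not tested was Defcr-rs12, and the second Defa3 probe did not pass the threshold.

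The 7 cryptdin probes other than the second Defa3 probe changed by similar amounts, between 0.70 and 0.88 on the log2 scale (1.63-fold to 1.84-fold). Defa1 had levels of -1.32, -1.21, -1.43 and -1.34 in EGFP and -0.63, -0.61 and -0.64 in Tip60 knockdown, a change of 0.70 (SE 0.073). Defcr6 had -1.93, -1.74, -1.90 and -1.89 in EGFP and -1.09, -1.15 and -1.09 in Tip60 knockdown, a change of 0.76 (SE 0.073). Neither gene's groups overlapped, and the gap was several times the SD of the EGFP arrays, 0.090 for Defa1 and 0.085 for Defcr6.

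Defa23 stood at -1.90, -1.93, -1.94 and -1.86 in EGFP and at -1.03, -1.27 and -1.12 in Tip60 knockdown. The Defa3 probe A_51_P467086 stood at -1.03, -1.11, -0.95 and -1.10 in EGFP and at -0.49, -0.15 and -0.27 in Tip60 knockdown. Defcr4 stood at -2.50, -2.21, -2.17 and -2.38 against -1.47, -1.44 and -1.62. The groups of these 3 genes were apart, with differences of 1.71-fold, 1.67-fold and 1.74-fold. Defa20 (-2.00, -1.92, -1.87 and -2.14 against -1.35, -1.07 and -1.15) and Defa22 (-3.22, -3.06, -2.94 and -3.43 against -2.24, -2.16 and -2.46) differed by 1.73-fold and 1.84-fold. The changes of these 7 probes are not ranked, since Defa22 stood highest at 0.88 (SE 0.14) here and lowest with the series matrix values (0.50) and with normexp on the mean signal (0.57).

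Of the related sequences, Defcr-rs2 and Defcr-rs10 came up from background to measurable signals. Defcr-rs2 probe A_52_P307801 stood at -6.49, -5.51, -6.02 and -5.99 in EGFP, above background on no array, and at -2.96, -2.83 and -2.77 in Tip60 knockdown, above it on all 3. Its level was at least 7.05-fold higher on this scale. The other Defcr-rs2 probe stood at -6.92, -7.03, -6.64 and -6.19 in EGFP and at -3.62, -3.29 and -3.38 in Tip60 knockdown, at least 4.78-fold higher. The sizes depend on how background was treated. With the authors' series matrix values the log2 changes of the pair were 1.24 and 1.17, and with normexp on the mean signal they were 1.22 and 1.17, below both bounds. The groups of both probes were apart.

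Defcr-rs10 stood at -6.81, -7.72, -6.32 and -5.54 in EGFP and at -4.59, -4.14 and -4.09 in Tip60 knockdown, at least 2.66-fold higher on this scale, with a log2 change of 0.51 in the series matrix values. Defa31 stood at -6.29, -5.76, -5.42 and -5.83 against -4.12, -4.77 and -5.16, and 1 of the 4 EGFP arrays measured it above background. Its groups did not overlap, and the distance between the lowest Tip60 array and the highest EGFP array was small. Defcr-rs12 was above background on 1 Tip60 array, where it stood at -4.12, while the others stood at -7.47 and -8.16, within the EGFP range of -8.27 to -7.44.

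**Figure D3:**
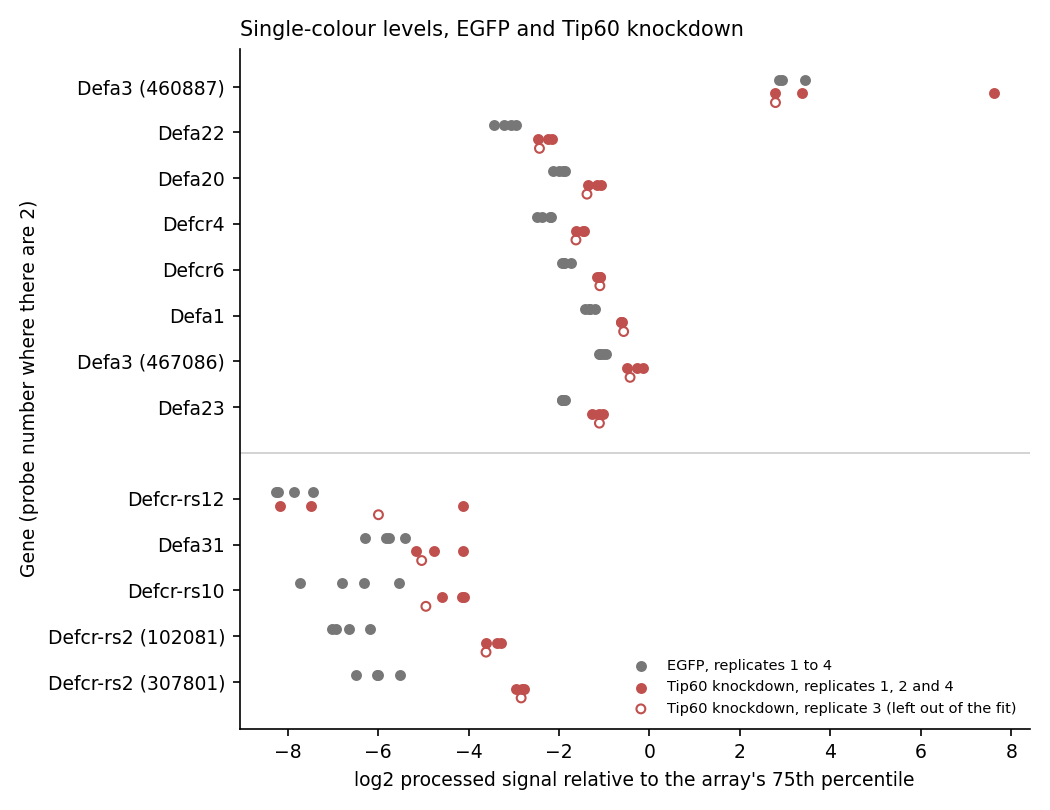
Level of each alpha-defensin probe (log2 processed signal relative to the array's 75th percentile) on EGFP arrays (grey), Tip60 knockdown arrays 1, 2 and 4 (filled red) and Tip60 replicate 3 (open red). The groups are apart for all probes except the second Defa3 probe (A_52_P460887) and Defcr-rs12. The share of all probes of the array with groups apart is not given here, so this describes the members only.

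The second Defa3 probe again stood apart. It lay at 3.44, 2.86 and 2.94 on EGFP replicates 1, 2 and 4, and its spot on EGFP replicate 3 was dropped from the fit because the scanner software marked it as non-uniform. In Tip60 knockdown it lay at 2.77, 7.62 and 3.38. The change of 1.51 (SE 1.32) rested on Tip60 replicate 2, and without that array it was -0.0051. The dropped EGFP spot had a processed signal of 234454 and the Tip60 replicate 2 spot one of 234598, against 6985 to 14019 on the other arrays, and neither was marked as saturated.

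The slides gave the same direction for the rest of the group. With slide as a block the members' median change was 1.03 and 12 members were called, beside 6390 probes over the array. Within slide 2 (2 Tip60 and 2 EGFP arrays) the median was 0.81 with 10 members called, beside 2331 probes over the array. Within slide 3 the median was 1.01. Slide 3 had a lone Tip60 array in the fit, whose spread was taken to equal that of the EGFP arrays. Tip60 replicate 3, when it was included, left 12 members called, beside 5908 probes over the array, and a median of 1.05.

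The fitted changes of the classes can be set side by side. Among the 7 cryptdin probes without the second Defa3 probe, the median change was 1.11 after p400 knockdown and 0.77 after Tip60 knockdown. Among the 7 related-sequence probes the medians were 0.82 and 2.32. The platforms, the normalisation and the offset differ between the experiments, and most of the related sequences were at background in EGFP RNA, so these values were not tested and are not a comparison of the knockdowns. The order of the classes after p400 knockdown turns with the offset. With an offset of 0, Defcr-rs10 stood at 2.34 and Defcr-rs2 at 2.78 and 3.37, above the cryptdin probes, among which the highest was Defa23 at 1.34.

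**Figure D4:**
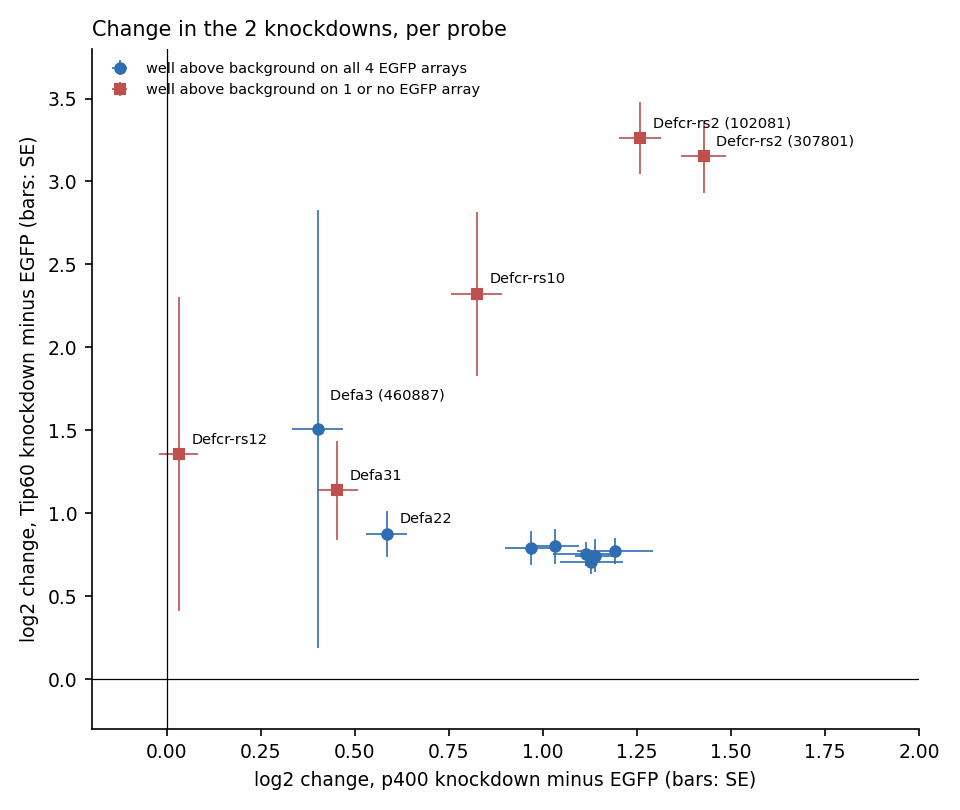
Fitted log2 change after p400 knockdown (horizontal) and after Tip60 knockdown (vertical) for the members described in the text, with standard errors. The cryptdin probes (blue) other than the second Defa3 probe lie between 0.70 and 0.88 on the vertical axis, and Defcr-rs2 lies at 3.15 and 3.26.

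Among probes outside the name rule, at least 2 belong to the family, and neither was higher in both knockdowns. One is called 2010016B13Rik in the files and is listed for the transcripts of Defa21 and Defa22 (chr8:20088020-20088079). It was above background in neither RNA on any p400 array, with log2 ratios of 0.01, 0.03, 0.14 and -0.02. On the single-colour arrays it was above background on EGFP replicate 1 (-4.44) and on no Tip60 array of the fit (-6.90, -7.38 and -8.09). It was not tested. The other, AY761185, is described in the files as CRS4C-6, a cryptdin-related sequence (chr8:19837707-19838335). It was above background in EGFP RNA on all 4 single-colour and all 4 p400 arrays. Its p400 log2 ratios were 0.04, -0.16, 0.19 and 0.09, on both sides of 0. It stood at -3.40, -3.95, -2.68 and -3.88 in EGFP and at -3.48, -3.19 and -3.17 in Tip60 knockdown, and these groups overlapped.

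Proximal promoter sequence was available for 4 members, Defa20, Defa22, Defa23 and Defa31, each called higher in both knockdowns in the main fits. It is shown for Defa20 and Defa23, and the sequences of Defa22 and Defa31 are compared with them below. The 100 bases upstream of the transcription start come from RefSeq on GRCm38.p6 (plus strand), at chr8:21509158-21509257 for Defa20 and chr8:21054940-21055039 for Defa23. Capitals mark TATAAA and ATCAAAG, the reverse complement of CTTTGAT.
Defa20: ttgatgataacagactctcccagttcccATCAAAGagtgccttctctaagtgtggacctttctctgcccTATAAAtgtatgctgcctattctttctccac
Defa23: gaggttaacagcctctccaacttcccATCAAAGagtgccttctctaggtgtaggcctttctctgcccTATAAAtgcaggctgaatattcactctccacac
TATAAA is the core of a TATA box, which places the start of transcription. CTTTGAT is the recognition sequence of the TCF family of Wnt effectors, among which Tcf7l2 is known to act on cryptdin genes in Paneth cells. Searched on both strands over the 250 bases upstream, TATAAA was present in 4 of 4 member promoters, in 15 of 16 Defa promoters in RefSeq and in 12.4% of all 32851 promoters. CTTTGAT was present in 4 of 4, in 13 of 16 and in 3.21% of all promoters. The Defa23 and Defa31 promoters were identical over all 250 bases, and those of Defa20 and Defa22 matched at 245. In EGFP RNA the Defa23 probe was above background on all 8 arrays, and the Defa31 probe on 1 of 4 single-colour and 3 of 4 p400 arrays. A match describes letters in a window and not a binding site.

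Other Paneth cell granule products were mostly not measured. Of 12 genes on the list, which holds more than granule products, 3 (Ang4, Kcnn4 and Nupr1) were tested in each comparison. In p400 knockdown the ribonuclease Ang4 rose by 0.20 (limma adjusted p = 0.039), a call that was lost without replicate 2, 3 or 4, without the dye term, with the series matrix values and with the background fitted on all spots. Nupr1, a stress-response cofactor, fell by 0.56 (limma adjusted p = 0.0033). In Tip60 knockdown none passed the threshold. Over the array 23.3% of tested probes were called higher and 19.3% lower after p400 knockdown, and 13.2% and 9.48% after Tip60 knockdown. Lysozyme (Lyz1), the processing protease Mmp7, intelectin (Itln1), Prss2, Reg3a, Reg3g and Mptx1 were above background on no single-colour EGFP array and untested in both comparisons. The summed linear level of these 12 genes relative to the 75th percentile was 10.6 to 13.2 on EGFP arrays and 9.71 to 9.75 on Tip60 arrays, and its ratio of knockdown to EGFP was 0.63 to 0.78 on the p400 arrays. The sum was thus lower in both knockdowns on every array, and this was not tested. On the single-colour EGFP arrays 7 of the 12 genes were above background on none, and Kcnn4 and Nupr1 on all 4. The sum is therefore not read as a level of the granule products.

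Regulators of Paneth cell fate were called in both directions, at shares near those over the whole array. In p400 knockdown 3 of 13 tested rose and 3 fell, beside 23.3% and 19.3% of all probes, and in Tip60 knockdown 2 of 11 rose and 2 fell, beside 13.2% and 9.48%. The count of rises was 6 without p400 replicate 1, and in Tip60 knockdown 0 within slide 2 or with a replicate block and 1 without EGFP replicate 1 or without Tip60 replicate 1 or 4. The Wnt target receptor Ephb2 rose by 0.54 after p400 knockdown and 0.50 after Tip60 knockdown, and Ephb3 rose by 0.55 after p400 knockdown. Tcf7l2 fell by 0.38 and 0.52, and Xbp1, which drives secretory capacity, fell by 0.42 and 0.31. The median over the list was 0.061 and 0.099.

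Several intestinal epithelial genes were higher beside the alpha-defensins, and their part in the result was not tested. Of 9 tested in the p400 comparison 5 rose and none fell, and of 8 tested in the Tip60 comparison 6 rose and none fell, beside 23.3% and 13.2% of all probes called higher. The p400 count was 3 without replicate 2 or 3 and with the background fitted on all spots, and 2 without replicate 4 or with signal required in both channels of all arrays. The Tip60 count was 2 within slide 3 and 4 under several other settings. Lgals4, a lectin of the intestinal brush border, rose 10.3-fold after p400 knockdown and 5.54-fold after Tip60 knockdown. The intestinal homeobox gene Cdx2 rose 1.5-fold after p400 knockdown, with EGFP RNA above background on 2 of 4 arrays, and Cdx1, above background on no single-colour EGFP array, was at least 1.55-fold higher after Tip60 knockdown. The summed level of the 12 genes was 3.86 to 4.04 on EGFP arrays and 17.7 to 19.9 on Tip60 arrays, and its ratio of knockdown to EGFP on the p400 arrays was 5.11 to 8.49. A linear sum follows its brightest genes. The median log2 change over the tested genes was smaller, 0.21 after p400 knockdown and 0.51 after Tip60 knockdown. The stem cell marker Lgr5, Olfm4, Cdh17, Cdx1 and the goblet cell mucin Muc2 were above background on no single-colour EGFP array. On the p400 arrays Muc2 was above background in EGFP RNA on all 4 and Cdx1 on 2.

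Neutrophil granule genes, markers of the other cell type known for alpha-defensins in many mammals, were mostly at background. Of 10 such genes 4 were tested in the p400 comparison, where lactoferrin (Ltf) rose by 0.20 (limma adjusted p = 0.043) with EGFP RNA above background on 1 of 4 arrays. This call was lost without replicate 2, 3 or 4, without the dye term, with the background fitted on all spots and with signal required in both channels. In the Tip60 comparison 2 were tested and myeloperoxidase (Mpo) rose by 0.95 (limma adjusted p = 0.014), a call that was lost when signal was required on all arrays. Over the array 23.3% of tested probes were called higher after p400 knockdown and 13.2% after Tip60 knockdown, and with so few genes tested no direction is read. Camp, Elane, Lcn2, Ngp, S100a8 and S100a9 were above background on no single-colour EGFP array. The summed level of the list was 0.097 to 0.15 on EGFP arrays and 0.17 to 0.22 on Tip60 arrays, and on the p400 arrays its ratio of knockdown to EGFP was 1.03 to 1.06. The part of these cells in the result was not tested.

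Beta-defensins, a related family of epithelial peptides with part of its genes in the same chromosomal region, were mostly not measurable. Of 27 genes 7 were tested in the p400 comparison and 3 in the Tip60 comparison. Among those tested, Defb3, Defb11 and Defb13 lie on chromosome 8. Defb19, Defb29 and Defb36 lie on chromosome 2 and Defb42 on chromosome 14, so the counts are not counts of the region. Defb13 rose by 1.20 after p400 knockdown (limma adjusted p = 0.00036), with EGFP RNA above background on 1 of 4 arrays, and was at least 2.15-fold higher after Tip60 knockdown (limma adjusted p = 0.00026). Defb3 rose by 0.43 after p400 knockdown. In the p400 comparison 2 of the 7 were called higher and none lower, beside 23.3% and 19.3% of all tested probes. In the Tip60 comparison 1 of the 3 was called higher and none lower, beside 13.2% and 9.48%. With so few genes tested, these counts are not read as a direction of the family.

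Genes within or near the cluster were called in both directions, and the counts are given beside the whole-array shares without being read as a result. Within 1000000 bases of the outermost alpha-defensin probes, 40 other gene names were on the array. They include beta-defensins and the family members outside the name rule, 2010016B13Rik (not tested) and AY761185 (tested). In the p400 comparison 7 of 21 tested rose and 5 fell (23.3% and 19.3% over the array), with a median of -0.089, and the rises numbered 4 without replicate 4. In the Tip60 comparison 4 of 20 rose and 2 fell (13.2% and 9.48% over the array), with a median of 0.12, and the rises numbered 2 within either slide. Beside Defb13, the thrombospondin-domain gene Thsd1 rose by 1.07 after p400 knockdown, and Ccdc70 was at least 1.6-fold higher after Tip60 knockdown. The phosphate transporter Slc20a2 fell by 0.50 after p400 knockdown, the transcript TC1522631 fell by 0.48 and 0.41 in the respective knockdowns, and Vps36, an endosomal sorting gene, fell by 0.41 after Tip60 knockdown.

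Genes of the 2-cell stage, which a small share of embryonic stem cells is known to express, were higher in both knockdowns. Of 9 tested genes 8 rose in each comparison, beside 23.3% of all tested probes for p400 and 13.2% for Tip60. The medians were 3.78 and 3.27 on the log2 scale. Zfp352 rose 26.0-fold after p400 knockdown and 11.5-fold after Tip60 knockdown, and Zscan4c rose 20.8-fold after p400 knockdown. Tdpoz1, above background on no single-colour EGFP array, was at least 4.61-fold higher after Tip60 knockdown. The part of such cells in the alpha-defensin signal was not tested.

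The embryonic stem cell label held in the controls, where Pou5f1, Nanog, Sox2 and the other 5 markers of the list were above background on all single-colour EGFP arrays. In the p400 comparison 1 of the 8 rose and 3 fell, beside 23.3% and 19.3% of all tested probes. The count of rises was 0 without replicate 2, 3 or 4, and 2 without replicate 1. In the Tip60 comparison none rose and 2 fell, beside 13.2% and 9.48% of all tested probes. The Kat5 probe fell by 1.49 after Tip60 knockdown (limma adjusted p = 1.52e-05) and by 0.44 after p400 knockdown (limma adjusted p = 0.0067). Ep400 fell by 0.59 and 0.80 on a pair of probes after p400 knockdown, a further Ep400 probe stood at 0.19 (limma adjusted p = 0.12) and the last was not tested.

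The genes outside the family whose pattern was most like that of the alpha-defensins were found by the root mean square difference from the members' median profile over 7 values, the 4 p400 log2 ratios and the 3 Tip60 arrays relative to the EGFP mean. Among 16776 gene names the nearest were H2-Bl (0.096), Spink2 (0.098), Nckap1l (0.12), Slc4a5 (0.13) and Sdc2 (0.13) on the log2 scale. Of the 13 members tested in both comparisons, Defcr4 lay at 0.099, Defa20 at 0.13, Defcr6 at 0.15, Defa3 (A_51_P467086) and Defa1 at 0.16, Defa23 at 0.21 and Defa22 at 0.36. Defa31 lay at 0.55 and Defcr-rs10 at 0.97. Defcr-rs2 and the second Defa3 probe lay between 1.52 and 1.57. Each of the 13 lay farther from the group's median than H2-Bl and Spink2, and each but Defcr4 farther than all 5 genes named. Those 5 were picked as the nearest of 16776 names, so this is no contrast between the members and other genes.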

How the data were processed

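Per the file headers, the scanner software was Agilent Feature Extraction 9.5.1.1 (array design 014868). Its deposited output holds, for each spot, mean, background and processed intensity and, on two-colour arrays, a deposited log10 ratio of red over green. The authors' value table is on a log2 scale, and how it was normalised is not given in the sources used here. Its p400 columns follow knockdown over EGFP.

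For the p400 arrays, intensities were corrected with normexp (offset 50), normalised by loess within arrays with control spots at weight 0, turned to knockdown over EGFP and fitted with limma 3.58.1 (R 4.3.3) with a dye term. On replicate 4, spots with a flagged local background set the normexp fit (fitted mean background of -211 in red and -242 in green, against -9.29 and -2.70 without them). A local background flagged as non-uniform (62 to 205 spots per array) was therefore replaced by the array's median, a choice made after seeing the data, and the uncorrected fit is an added alternative. For the single-colour arrays, log2 processed intensity minus the array's 75th percentile was fitted with limma, Tip60 replicates 1, 2 and 4 against EGFP. Outlier spots were dropped. A probe was tested if 3 or more arrays of one RNA measured it well above background, so a probe dim in EGFP could enter only by being brighter in the knockdown. Adjusted p values are two-sided Benjamini-Hochberg values over all tested probes, with a threshold of 0.05. The number of arrays limits the precision. The steps were tested on simulated data.

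The members and all gene lists were chosen with earlier results of these data known. The text gives values for every member but 1, which is not reported here by itself and is kept in counts and medians, the 2 largest rises and falls of each other list where named, the nearest 5 genes by pattern, and genes of each list that were not above background. Of the arrays' 41174 probes, 8455 kept the name in the files. Protein sequences, exon positions and untranslated regions were not analysed here.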

Additional observations from a re-analysis of the deposited data

Results flagged for a closer look

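Of 44 groups of 4 arrays examined for the members, 2 held an array whose gap to its nearest neighbour was large against the range of the group, and chance gives about 1 in 20 such groups. The second Defa3 probe (A_52_P460887) stood at 7.62 on Tip60 replicate 2, against 2.77, 2.79 and 3.38 on the other Tip60 arrays. Defcr6 stood at -1.15 on the same array, against -1.10 to -1.09 on the others, a small distance in a group with very little spread.

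Tip60 replicate 3 was left out of the main comparison and entered alternatives only. Of the 10 members well above background on that array, 9 were higher there than on every EGFP array, and the exception was the second Defa3 probe. The choice of members measured on that array favours high values for those at background in EGFP RNA. The share over all probes well above background there is not given, so the count is a description. Defa1 stood at -0.57 and Defcr6 at -1.10 there.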

How the results depend on the processing

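Among the 14 p400 and 13 Tip60 members tested, each kept its direction under the alternatives that gave a value, except the second Defa3 probe in Tip60 knockdown, at -0.13 within slide 3 and between -0.0051 (without Tip60 replicate 2) and 2.42 with an array left out. The members' p400 median was 1.29 with the deposited log ratio, 1.31 with a normexp offset of 0 and 0.84 with the background fitted on all spots. Asking for signal above background everywhere left 9 p400 and 7 Tip60 members called, beside 10689 and 5427 probes over the array. The Tip60 median was 0.79 with quantile normalization, 0.62 with normexp on the mean signal, 0.59 with the series matrix values, 0.81 within slide 2 and 1.01 within slide 3, where 6 members were called. Leaving out an array gave Tip60 medians of 0.84 to 1.38 (lowest without Tip60 replicate 2) and 6739 to 12248 p400 probes called over the array. Tip60 probes called numbered 3635 without a filter on dim probes, 2331 within slide 2 and 1731 within slide 3. With a replicate block 2291 Tip60 probes and 11 members were called. The r of deviations was -0.33 to -0.12 for arrays of equal replicate number and -0.39 to 0.57 for unequal ones. With so few arrays these values cannot decide whether the numbers pair the arrays. Defa31 lost its Tip60 call under 9 of 18 alternatives, and the cause was not tested. Signal near background limits the sizes for the related sequences.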
